A study of Mus musculus with 9 samples.

Results

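Neurotrophic factors and their receptors were followed in neurospheres of adult mouse olfactory bulb stem cells (aOBSCs). The set held 10 genes: Gfra1, Gfra2, Ret and Gdnf of the GDNF system, Ntrk2, Ntrk3, Ngfr and Bdnf of the neurotrophin system, and Cntf and Nrn1. All probe sets that the platform annotation assigns to these symbols were taken, which gave 34 of the 45037 probe sets tested. Of these, 33 carried a single symbol and stood for 9 of the 10 genes, of 18193 genes with a single symbol in all. The cultures came from adult mice of CD1 or C57Bl/6 strains, with donors of 7 and 15 months named for the expression experiments, and neither the strain nor the age of the donors of a given array was stated. All groups received FGF-2 and EGF at 20 ng/ml and had been kept in their feeding regime for 2 passages before the assay, and they differed in how often the factors were added. The control group (Ctr) received them every day, C2 every 2 days and C4 every 4 days, and RNA was taken after 7 days in culture. The paper states that C4 aOBSCs had gone longer without added factors at collection than C2 aOBSCs. The interval and the time since the last addition therefore cannot be told apart here. Each group had 3 Affymetrix mouse genome arrays, described as biological replicates, but the animals or cultures behind each array were not named, so the p-values measure the spread between these arrays. No genotype was altered and no group was left without growth factors altogether.

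Neurotrophins such as BDNF bind Trk receptor tyrosine kinases, TrkB (Ntrk2) for BDNF and TrkC (Ntrk3) for neurotrophin-3, and all of them also bind the p75 receptor (Ngfr). GDNF family ligands bind a GFRα co-receptor held to the membrane by a lipid anchor (Gfra1 for GDNF, Gfra2 for neurturin), and the pair then engages the receptor tyrosine kinase RET. CNTF acts through a receptor built from CNTFR, LIFR and gp130 (Il6st), and neuritin (Nrn1) is a small membrane-anchored protein, induced by neuronal activity and by BDNF, that promotes neurite growth. In the olfactory bulb, BDNF and GDNF are known for effects on the migration and survival of newborn interneurons, and Ngfr is a marker of olfactory ensheathing cells.

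Bdnf is transcribed from several promoters, each with its own first exon spliced to a shared coding exon. Because Bdnf was the member whose order across the groups ran C2, Ctr, C4 with each step past the test, the 60 bases before each of its 7 annotated RefSeq start sites (build GRCm38.p6, chromosome 2, plus strand, 5′ to 3′) are shown, in order along the gene. Capitals mark a CRE-like element, TCACGTCA.

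Bdnf, chr2:109674640-109674699: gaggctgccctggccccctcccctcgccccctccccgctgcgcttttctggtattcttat
Bdnf, chr2:109676972-109677031: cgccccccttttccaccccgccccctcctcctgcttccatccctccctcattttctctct
Bdnf, chr2:109692376-109692435: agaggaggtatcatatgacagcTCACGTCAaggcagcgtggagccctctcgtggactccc
Bdnf, chr2:109692967-109693026: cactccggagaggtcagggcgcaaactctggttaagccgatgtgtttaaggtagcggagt
Bdnf, chr2:109694349-109694408: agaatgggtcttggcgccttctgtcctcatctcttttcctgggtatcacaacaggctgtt
Bdnf, chr2:109709323-109709382: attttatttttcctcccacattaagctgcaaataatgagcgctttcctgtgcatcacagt
Bdnf, chr2:109722861-109722920: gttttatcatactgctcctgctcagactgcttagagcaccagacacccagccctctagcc

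The element TCACGTCA, a variant of the site bound by CREB, stood at position -38 from the start site in the third sequence and was searched on both strands of windows of 300 bases (250 before and 50 after each start). It was present in 1 of the 7 Bdnf windows and in 0.441% of all 32851 windows. The element was chosen in advance and not found by the search, so its share in Bdnf is no test of enrichment. The shorter core TGACG, which the element holds on its other strand, was present in 20.8% of all windows. Among the windows of members, TGACG was present in the third of Bdnf and the first of Gdnf. The palindrome TGACGTCA was present in 0 of the 13 windows that the tables held for 6 members, and in 1.79% of all windows. These matches describe the sequence only. The arrays do not tell the 7 start sites apart, since the Bdnf values below come from a probe set for the gene as a whole. For Ntrk2, the receptor that rose in C4, the tables held 1 start site, and the 60 bases before it (build GRCm38.p6, plus strand) carried no CRE-like element.

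Ntrk2, chr13:58806509-58806568: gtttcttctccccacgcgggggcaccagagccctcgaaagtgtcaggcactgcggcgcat

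Values are log2 values from GCRMA, in which the authors' software removed a background predicted by each probe's base composition, and a log2 difference of 1 is a doubling. A probe set with a value over 4 on at least 3 arrays is called measurable here, and values below lie near the floor of the arrays, whose lowest value was 2.27. Groups were compared with limma over all 45037 probe sets, and a difference with a Benjamini-Hochberg adjusted p under 0.05 passed the test. Of the 33 probe sets, 15 were measurable and stood for 6 genes (Nrn1, Gfra1, Gfra2, Bdnf, Ntrk2 and Ntrk3). A further 6 were at that lowest value on every array, and 12 others were under the limit. Against Ctr, 1 probe set was higher and 2 were lower in C2 (9.09% of 33, against 1.7% of all probe sets, of which 1.13% were higher and 0.577% lower), and 1 was higher and 4 were lower in C4 (15.2% of 33, against 6.29%, of which 3.78% higher and 2.51% lower). Between C4 and C2, 1 was higher and 3 were lower in C4 (12.1%, against 5.25%, of which 2.86% higher and 2.39% lower). At a stricter threshold, a difference of at least 1 and an adjusted p under 0.01, 0 passed for C2 (against 0.0244% of all probe sets), where Nrn1 and Gfra2 differed by more than 1 with an adjusted p of 0.0119 and 0.0106. The same threshold was passed by Nrn1 and Gfra2 for C4 (0.511%) and Bdnf between C4 and C2 (0.497%). The arrays of the groups did not overlap in 5, 6 and 7 of the 33 probe sets, against 12.2%, 16.5% and 15% of all probe sets. These shares depend on the dim probe sets: when 18380 measurable probe sets alone were tested, 9.93% of them passed for C2, 25.6% for C4 and 21.3% between C4 and C2. In that test 3, 5 and 4 of the 15 measurable member probe sets passed. Shares of the 33 are therefore not to be set against these percentages. The median difference over the 33 probe sets was 0.00 in all 3 comparisons, as it was over all probe sets.

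The arrays of the series were close to each other. Pearson correlations over all probe sets between arrays of a group were 0.99769 to 0.99878 (this is across probe sets, none of which is an independent replicate). The 3′ minus 5′ difference of the Gapdh control transcript, a measure of RNA integrity, was -0.277, -0.328 and -0.332 on the Ctr arrays, -0.381, -0.397 and -0.380 on the C2 arrays and -0.347, -0.386 and -0.272 on the C4 arrays. All C2 arrays lay below all Ctr arrays, and the C4 arrays overlapped both groups. The part of this difference in the C2 results of Nrn1, Gfra2 and Bdnf was not tested. Markers were checked against the stem cell label. Of 13 listed stem or progenitor genes with a probe set, 12 were measurable and Prom1 stood at the lowest value, while 0 of 5 endothelial, 0 of 7 microglial and 0 of 6 pericyte and fibroblast markers were. Of 10 neuroblast and neuron markers, Map2 and Gad1 were measurable, Gad1 fell by 0.37 in C4 (adjusted p = 0.0152), and Dcx, Tubb3 and Snap25 had means of at most 2.40.

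Nrn1 (Entrez gene 68404, chromosome 13 from 36725622 to 36734477 on GRCm38.p6) was lower in both groups with less frequent feeding. Its 1 probe set had values of 8.78, 8.66 and 8.57 on the Ctr arrays, 7.61, 7.50 and 7.77 on the C2 arrays and 7.61, 7.25 and 7.37 on the C4 arrays. All 3 Ctr arrays lay above every C2 and C4 array, and the C2 and C4 arrays overlapped. The means were 8.67 ± 0.106, 7.63 ± 0.137 and 7.41 ± 0.181 (SD, n = 3 arrays each). Nrn1 fell by 1.05 in C2 (standard error 0.113, adjusted p = 0.0119), and by 1.26 in C4 (adjusted p = 0.00174), 2.40-fold lower. The difference between C4 and C2 was -0.21 (adjusted p = 0.541) and did not pass. Leaving out any 1 of the 9 arrays kept both calls (adjusted p up to 0.0495 in C2 and 0.0106 in C4), while limma's robust option ended that of C2 (0.0663). In bulk RNA, fewer cells that express a gene and less of its RNA per cell cannot be told apart, which holds for each result given here.

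**Figure D1:**
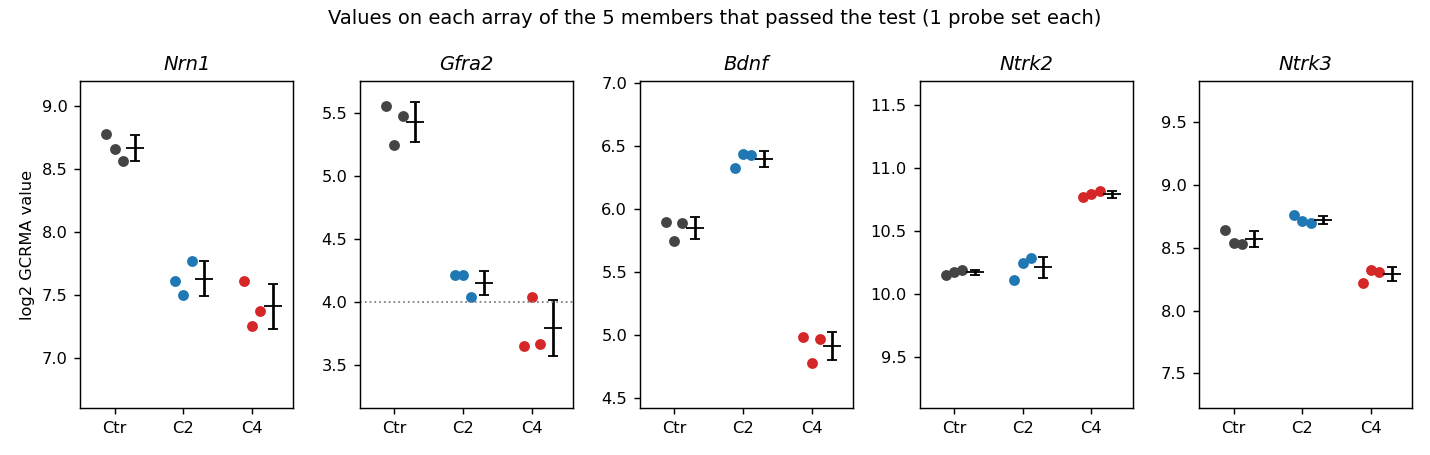
Log2 GCRMA values on each array (points, 3 per group) of Nrn1, Gfra2, Bdnf, Ntrk2 and Ntrk3, each by its probe set of highest mean, with the mean ± SD of the group beside them (n = 3). All panels span the same log2 range and the dotted line marks the limit of 4. Nrn1 and Gfra2 were highest in Ctr, Bdnf had 3 separate groups with C4 lowest, Ntrk2 was highest in C4 and Ntrk3 was lowest in C4.

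Of the GDNF system, Gfra2 was the 1 gene that passed a test, and the ligand and the signalling receptor were near the floor. The Gfra2 (Entrez gene 14586, chromosome 14 from 70890107 to 70979840) probe set 1433716_x_at had values of 5.56, 5.25 and 5.48 in Ctr, 4.21, 4.21 and 4.04 in C2 and 3.65, 4.04 and 3.66 in C4. The Ctr arrays lay above all others, and the C2 and C4 arrays met at 4.04. Gfra2 fell by 1.28 in C2 (standard error 0.132, adjusted p = 0.0106), and by 1.65 in C4 (adjusted p = 0.00112), where the mean of 3.79 ± 0.221 (SD, n = 3) was under 4, so the size rests in part on values below the limit. C4 and C2 differed by -0.37 (adjusted p = 0.263), which did not pass. The 4 other Gfra2 probe sets had values of at most 2.42 and did not pass, and the suffix _x of the probe set that fell marks probes that may also match other transcripts. The fall of Gfra2 thus rests on 1 probe set of uncertain specificity. With the robust option its C2 call was lost as well (adjusted p = 0.0663).

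Gfra1 (Entrez gene 14585, chromosome 19 from 58235581 to 58455946), the GDNF co-receptor, had 2 measurable probe sets out of 3. The brighter one read 4.70, 4.70 and 4.73 in Ctr, 4.70, 4.90 and 4.70 in C2 and 4.70, 4.70 and 4.93 in C4. The groups overlapped, with differences of 0.05 in C2 (adjusted p = 1) and 0.06 in C4 (adjusted p = 0.907). The second one ranged from 3.90 to 4.65 and differed by -0.08 and -0.02 (adjusted p = 1 for both). Both were close to the limit. Ret (chromosome 6 from 118151748 to 118197744), the signalling receptor of the system, had 2 probe sets with values of 2.27 to 2.73, and the highest of these was on 1 Ctr array. Gdnf (chromosome 15 from 7810048 to 7837580) read 2.27, the lowest value, on each of the 9 arrays. Neither Ret nor Gdnf was therefore measurable in any group, and their absence cannot be told from a signal under the floor.

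Bdnf (Entrez gene 12064, chromosome 2 from 109674700 to 109727043), the ligand of TrkB, was higher in C2 and lower in C4 than in Ctr. Probe set 1422168_a_at, which matches several transcripts of the gene, had values of 5.90, 5.75 and 5.89 in Ctr, 6.33, 6.44 and 6.43 in C2 and 4.98, 4.78 and 4.97 in C4. The 3 groups did not overlap, with every C2 array above and every C4 array below every Ctr array. The means were 5.85 ± 0.0881, 6.40 ± 0.0639 and 4.91 ± 0.109 (SD, n = 3 arrays each). Bdnf fell by 0.94 in C4 (standard error 0.0706, adjusted p = 9.11e-04), which is 1.91-fold. It rose by 0.55 in C2 (adjusted p = 0.0206), which is 1.47-fold. C4 was lower than C2 by 2.81-fold, with a log2 difference of -1.49 (adjusted p = 1.34e-04). Both comparisons with Ctr share the Ctr arrays. The size of the difference between C4 and C2 does not use them, but its standard error does, since the groups share an estimate of the spread. With only the C2 and C4 arrays in limma's fit, this difference passed as well (adjusted p = 0.00353). The fall in C4 and the difference between C4 and C2 passed without any 1 array and with the robust option. The rise in C2 did not pass without any 1 of the 3 Ctr or 3 C2 arrays (adjusted p = 0.0503 to 0.0786) or with the robust option (0.157), although its size stayed at 0.50 to 0.59. The other Bdnf probe set, 1422169_a_at, lay at 3.49 to 3.81, under the limit, and did not pass (0.09 in C2, adjusted p = 0.735; -0.03 in C4, adjusted p = 1).

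Ntrk2 (Entrez gene 18212, chromosome 13 from 58806472 to 59133970), which encodes the BDNF receptor TrkB in full-length and truncated forms, was higher in C4 by the brightest of its probe sets. Probe set 1420838_at had values of 10.15, 10.17 and 10.19 in Ctr, 10.11, 10.24 and 10.28 in C2 and 10.77, 10.79 and 10.82 in C4. All C4 arrays lay above all others, while the Ctr and C2 arrays overlapped. Ntrk2 rose by 0.62 in C4 (standard error 0.0418, adjusted p = 6.53e-04), or 1.54-fold, and was higher by 0.58 in C4 than in C2 (adjusted p = 6.90e-04). C2 differed from Ctr by 0.04 (adjusted p = 0.915) and did not pass. Without any 1 array the C4 difference was 0.61 to 0.63 and passed.

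The other probe sets of Ntrk2 did not show that change at a size that passed. The nearest in signal, 1435196_at, had values of 10.08, 10.00 and 9.95 in Ctr, 9.98, 9.93 and 9.89 in C2 and 10.18, 10.05 and 10.37 in C4. Its C4 arrays overlapped the Ctr arrays, and the difference of 0.19 (adjusted p = 0.349) did not pass. A further 5 measurable probe sets differed by -0.08 to 0.25 in C4 with an adjusted p of 0.567 or more, and 1 stood at the lowest value. With the mean over all 8 probe sets the difference was 0.19 in C4 (adjusted p = 0.0186), and 0.14 between C4 and C2 (adjusted p = 0.0601), which did not pass. The annotation does not say which probe set reads the full-length and which the truncated receptor, and the difference between probe sets was not tested.

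**Figure D2:**
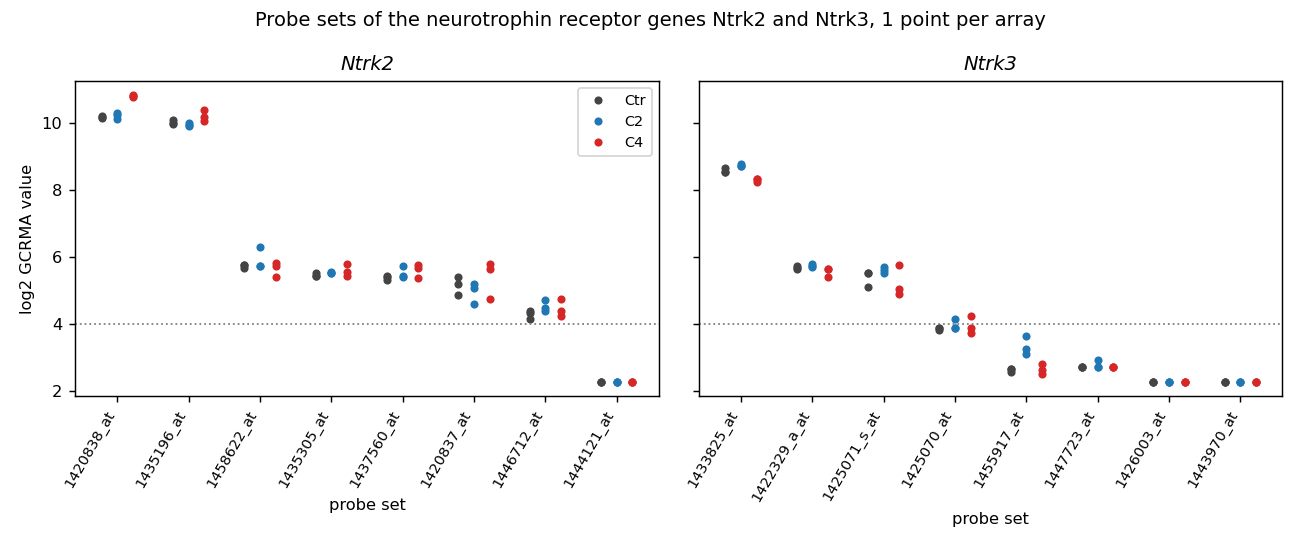
Log2 GCRMA values on each array of the 8 probe sets of Ntrk2 and the 8 of Ntrk3, in order of their mean, with Ctr, C2 and C4 arrays as separate colours and the limit of 4 as a dotted line. Heights cannot be compared between probe sets. The brightest Ntrk2 probe set was higher in C4 and the brightest Ntrk3 probe set was lower, while most of the others overlapped between groups.

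The rise of Ntrk2 in C4 stood beside changes in markers of glial lineages, in a comparison in which 5.65% of all genes were higher and 3.55% lower. Of 7 measured astrocyte markers 4 rose and 0 fell in C4, and their summed log2 value was 52.17 to 53.17 on the C4 arrays, 48.75 to 48.93 on the Ctr arrays and 48.14 to 49.47 on the C2 arrays. Gfap, the defining filament of astrocytes, had means of 3.68 in Ctr and 3.79 in C4, under the limit, and Gjb6 stood at the lowest value. By immunostaining, which reads protein in single cells, the paper reports a higher proportion of GFAP-positive cells in C4 aOBSC neurospheres than in controls. Of 7 measured markers of the oligodendrocyte lineage 3 rose (Pdgfra, Cspg4 and Gpr17), with a summed value of 29.05 to 30.48 in C4, 25.38 to 25.73 in Ctr and 22.75 to 23.80 in C2, while Mbp, Mog and Mag lay at or near the lowest value. In C2, Gpr17 and the astrocyte marker Aldh1l1 fell on the arrays. By quantitative RT-PCR, the paper reports the opposite direction for Gpr17, with higher levels in C2 aOBSC cultures than in controls. Of 13 measured stem and progenitor markers 6 rose and 1 fell, with a summed value of 128.90 to 129.53 in C4 against 125.88 to 126.16 in Ctr. The part of cell composition in the rise of Ntrk2 was not tested.

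Ntrk3 (Entrez gene 18213, chromosome 7 from 78179986 to 78581034), the gene of the neurotrophin-3 receptor TrkC, moved the other way in C4 by its brightest probe set, and by less. Probe set 1433825_at had values of 8.64, 8.54 and 8.53 in Ctr, 8.76, 8.71 and 8.70 in C2 and 8.22, 8.32 and 8.31 in C4. The order of the groups was C2, Ctr, C4 with no overlap, but C2 and Ctr differed by 0.15 (adjusted p = 0.174), which did not pass. Ntrk3 fell by 0.29 in C4 (standard error 0.0399, adjusted p = 0.00895), or 1.22-fold, and C4 differed from C2 by -0.44 (adjusted p = 0.00189). The C4 call was lost when the C2 arrays were kept out of the fit (adjusted p = 0.0525), with the robust option (0.0848) and with the mean over the 8 probe sets (-0.05, 0.551). The 2 other measurable probe sets had C4 differences of -0.11 and -0.15 that did not pass. A dim probe set, 1455917_at, read 2.64, 2.64 and 2.57 in Ctr, 3.11, 3.64 and 3.25 in C2 and 2.63, 2.50 and 2.79 in C4. All its values were under the limit. It differed between C4 and C2 by -0.69 (adjusted p = 0.042), and between C2 and Ctr by 0.71 (adjusted p = 0.0761), which did not pass.

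Ngfr (chromosome 11 from 95568818 to 95587698), the p75 receptor, was not measurable in any group. Of its 3 probe sets 2 read 2.27 on every array, and the third had values of 2.35 to 2.59. Other markers of olfactory ensheathing cells, Frzb, Npy and Sox10, had means of at most 2.62 in every group, and S100b and Fabp7, which astrocytes and progenitors also express, were measurable. Cntf (chromosome 19 from 12763528 to 12765632) shares its probe set with Zfp91 and Gm44505 in the annotation, so no level is given for it.

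**Figure D3:**
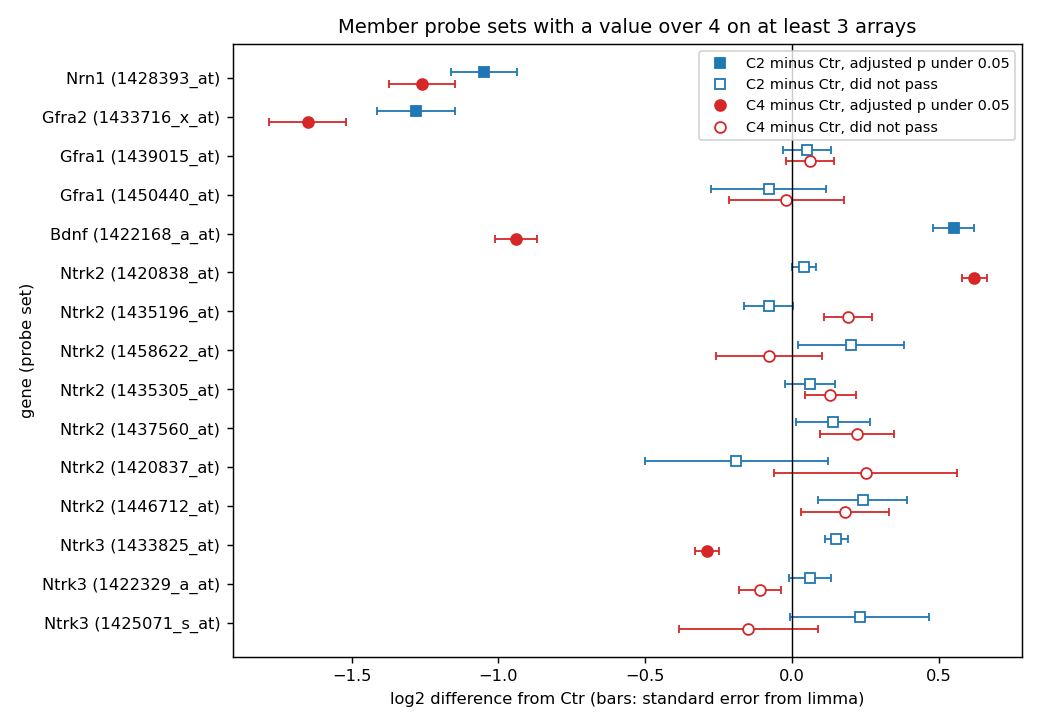
Log2 differences of C2 (squares) and C4 (circles) from Ctr, with standard errors from limma, for the 15 measurable member probe sets. Filled symbols passed at an adjusted p under 0.05. In C4 the 5 filled symbols were Nrn1, Gfra2, Bdnf and Ntrk3 on the lower side and Ntrk2 on the higher side, and in C2 the 3 filled symbols were Nrn1 and Gfra2 on the lower side and Bdnf on the higher side.

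The ligands that pair with these receptors were mostly near the floor, whereas several partners of the receptors were measurable. Of 76 genes of a list of neurotrophic ligands, receptors, adaptors and processing enzymes that had a probe set of their own, 40 were measurable and 10 never left the lowest value. In C4, 6 rose and 5 fell, against 5.65% and 3.55% (together 9.2%) of all genes, and in C2, 2 rose and 1 fell, against 1.67% and 0.846% (together 2.52%). Between C4 and C2, 5 were higher and 4 lower in C4, against 4.29% and 3.49% (together 7.78%). The median difference over the list was 0.00 in each comparison, as over all genes. The counts moved with single arrays: for C4 they were 5 without Ctr replicate 1, 4 without Ctr replicate 2, 5 without Ctr replicate 3 and 5 without C4 replicate 2, out of 11, and for C2 they were 0 without Ctr replicate 2 and 1 without Ctr replicate 3, C2 replicate 1 or C2 replicate 3, out of 3. Between C4 and C2 the count of 9 became 5 without C2 replicate 2.

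Among the ligands, Ntf5 (neurotrophin-4), Nrtn (neurturin, the ligand of GFRα2), Artn and Pspn had means of at most 2.33 in every group. Artn and Pspn read 2.27 throughout. Ligands of the CNTF family (Lif, Clcf1, Ctf1, Osm, Il6 and Il11) were under the limit on all arrays, and 0 of these 6 passed in C2 or in C4 (0 at an unadjusted p under 0.05 in limma's test). Manf, a secreted factor of the endoplasmic reticulum with survival activity on dopaminergic neurons, was measurable, with values of 10.77, 10.85 and 10.95 in Ctr, 10.85, 10.92 and 10.88 in C2 and 11.12, 11.17 and 11.07 in C4. It rose by 0.27 in C4 (adjusted p = 0.0245).

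Among the receptors and co-receptors, Sorl1, a sorting receptor of the sortilin family that binds TrkB and guides its transport, was lower in C4 than in both other groups. Sorl1 had values of 7.24, 7.28 and 7.52 in Ctr, 6.89, 7.07 and 7.02 in C2 and 6.45, 6.38 and 6.47 in C4. The C4 arrays lay below all others, and the C2 arrays lay between. It fell by 0.91 in C4 (standard error 0.0834, adjusted p = 0.00187), and differed by -0.35 in C2 (adjusted p = 0.13), which did not pass. Sorcs2, a relative that serves as a co-receptor of p75 for proneurotrophins, was lower by 0.92 in C4 than in C2 (log2 difference -0.92, adjusted p = 0.0133) and passed neither comparison with Ctr. Sort1 (sortilin) differed by 0.06 in C4 (adjusted p = 0.632). Sdc3, a heparan sulfate proteoglycan that can bind GDNF, rose by 0.62 in C4 (adjusted p = 0.0221), and Ncam1, an adhesion molecule that serves as a second receptor of GDNF with GFRα1, rose by 0.19 (adjusted p = 0.0284). Gfra3 and Gfra4 had means of at most 2.80. Of the CNTF receptor, Lifr rose by 0.36 in C4 (values of 9.23, 9.23 and 9.22 in Ctr and 9.53, 9.55 and 9.68 in C4, adjusted p = 0.0167), while Cntfr (0.20, adjusted p = 0.632) and Il6st (-0.09, adjusted p = 0.738) did not pass. Each of these values is from the brightest probe set of the gene. In C4, 2 of 3 probe sets passed for Sorl1, 1 of 3 for Sdc3, 2 of 7 for Ncam1 and 1 of 3 for Lifr.

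Among the cytoplasmic partners, Maged1 (NRAGE), which binds the intracellular part of p75, had values of 13.48, 13.44 and 13.50 in Ctr, 13.31, 13.31 and 13.37 in C2 and 12.52, 12.61 and 12.70 in C4. It fell by 0.86 in C4 (standard error 0.0447, adjusted p = 2.41e-04), whereas in C2 it differed by -0.14 without passing (adjusted p = 0.281). Bex1, a small adaptor that binds p75, fell by 0.73 in C2 (adjusted p = 0.0225) and by 0.91 in C4 (adjusted p = 0.00321). The paper also measured Bex1 by quantitative RT-PCR. Among the downregulated genes measured that way, it names only Npnt and Calb1 as lower in C4 aOBSCs. Bex3, a relative of Bex1 (listed on the platform under its current name), also known as NADE, rose by 0.22 in C2 (adjusted p = 0.0346), and by 0.19 in C4 (adjusted p = 0.0207). Shc1, an adaptor that couples Trk receptors to Ras, fell by 0.51 in C4 (adjusted p = 0.0397). Jak1, a kinase bound to gp130, rose by 0.33 in C4 (adjusted p = 0.0345), and Ptpn11, the phosphatase SHP2 of Trk and RET signalling, rose by 0.20 in C2 (adjusted p = 0.0134) with 0.10 in C4 (adjusted p = 0.0595). In C4, 1 of 2 probe sets passed for Shc1 and 1 of 3 for Jak1. Of the processing enzymes, Pcsk6 fell by 0.88 in C4 (adjusted p = 0.00854) with all values under the limit (2.59 to 3.60), and Plat, the tissue plasminogen activator, lay at 11.90 to 12.23 on all arrays and did not pass.

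**Figure D4:**
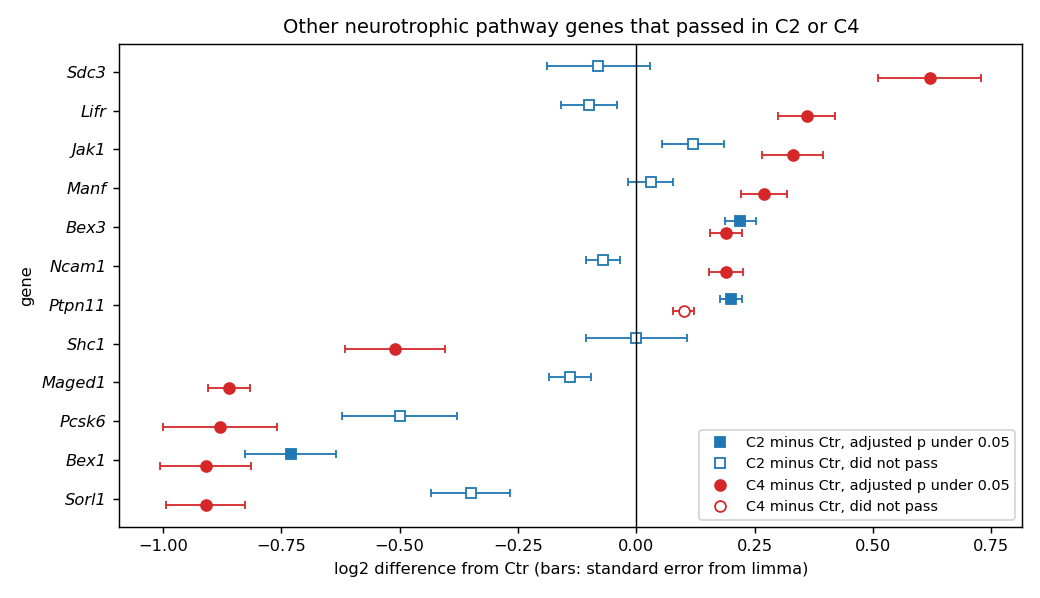
Log2 differences of C2 (squares) and C4 (circles) from Ctr, with standard errors from limma, of the 12 other genes of the neurotrophic list that passed in C2 or C4 (filled symbols passed). Sorl1, Bex1, Pcsk6, Maged1 and Shc1 lay on the lower side in C4, and Sdc3, Lifr, Jak1, Manf, Bex3 and Ncam1 on the higher side.

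For each member that passed, the 3 genes with the most similar profile over the 9 arrays were listed among the measurable probe sets, by Pearson correlation and as a description, since the arrays form 3 groups and a gene that separates the same groups will correlate highly. For Nrn1 these were Jmjd6 (r = 0.9866), Slc2a1 (0.9768), the glucose transporter GLUT1, and Plod2 (0.976), a lysyl hydroxylase. For Gfra2 they were Prelid1 (0.9856), Rbpj (0.9824), the transcription factor of Notch signalling, and Tpi1 (0.9814), a glycolytic enzyme. For Bdnf they were the aminoacyl-tRNA synthetase genes Iars (0.9968) and Gars (0.9942) and Pck2 (0.9936), the mitochondrial phosphoenolpyruvate carboxykinase. Pck2, for one, averaged 9.24 (Ctr), 9.77 (C2) and 8.45 (C4), in the same order of groups as Bdnf. For Ntrk2 they were Scamp5 (0.9961), Grin3a (0.9949), an NMDA receptor subunit, and Plekhb1 (0.9947), and for Ntrk3 they were Klf3 (0.9908), Esf1 (0.9888) and Flot1 (0.9882).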

How the data were processed

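RNA of 9 aOBSC samples (3 each of Ctr, C2 and C4) was measured on Affymetrix arrays. The authors computed log2 values with GCRMA (background by probe sequence, quantile normalisation, summary per probe set; version not given in the sources used here), which were used as deposited. After removal of 64 control probe sets, 45037 were fitted in R 4.3.3 by limma 3.58.1; the model held the 9 arrays, a mean for each group and an intensity trend in the variance prior. Adjusted p-values are Benjamini-Hochberg values over all probe sets of a comparison, without a filter. In all, 12350 probe sets were constant. Where a gene has several probe sets, the one with the highest mean over all arrays stands for it. The procedure was tested on simulated arrays with independent noise and with changes only in probe sets of a mean over 4. That simulation held no effects shared between arrays. Members and lists were chosen with earlier results of these data known; lists were written from general knowledge. Genes named are all members, listed genes past the test in C2 or C4, direct partners of members and the 3 most correlated genes; Sorcs2, Plat, the CNTF family ligands and the single markers were chosen after their values were seen. Start site sequences and positions are those of RefSeq (GRCm38.p6). The study names no test for its arrays. An array has no read depth; the number of arrays limits the precision.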

Additional observations from a re-analysis of the deposited data

How the results depend on the processing

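Of the member probe sets, 3 passed for C2, 5 for C4 and 4 between C4 and C2. Leaving out each array gave 2 to 3, 5 to 5 and 3 to 4. Without probe sets whose suffix marks several possible transcripts (which removes Bdnf and the bright Gfra2 probe set) the counts were 1, 3 and 2, and at a stricter threshold (a difference of at least 1 and an adjusted p under 0.01) they were 0, 2 and 1. With limma's robust option 0 passed for C2 (4 at an unadjusted p under 0.05). Whether the replicate numbers pair the arrays is not stated. The correlations of deviations between same-numbered arrays were -0.0426 to 0.126, over 0.1 in 2 of 9 pairs. With 3 arrays per group these correlations cannot settle whether same-numbered arrays share a culture. With the replicate number as a block 1 member probe set passed for C2 (Nrn1, while Bdnf and Gfra2 had an adjusted p of 0.0696 and 0.0689), and 1, 7 and 6 pathway genes passed for C2, for C4 and between C4 and C2. Of the 76 pathway genes, 3, 11 and 9 passed for C2, for C4 and between C4 and C2. Leaving out each array gave 0 to 4, 4 to 10 and 5 to 8. With only the arrays of the 2 groups 0 (14 at an unadjusted p under 0.05), 6 and 4 passed, with the robust option 0 (9 at an unadjusted p under 0.05), 4 and 4, and at the stricter threshold 0, 0 and 0. Without dim probe sets 6 passed for C2, without the ambiguous probe sets 1 passed for C2, and when a gene's probe sets were averaged 14 passed between C4 and C2. No called difference of a member changed sign under these settings, although without the ambiguous probe sets Bdnf had no value and Gfra2 a difference of 0.00, from a probe set at the lowest value. Centring the arrays moved no array by more than 0.0548. The cause of these shifts was not tested.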
